A study of Mus musculus with 31 samples.

Results

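The 10 fatty acid oxidation genes described here, of 22609 gene symbols in the count tables, were chosen by symbol: Cpt1b, Cpt2, Acadvl, Acadl, Acadm, Hadha, Hadhb, Acaa2, Etfdh and Auh. Each had at least 10 reads in at least 3 libraries of every comparison, so all 10 were tested throughout.

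The libraries were made from left masseter muscle (MM), a jaw-closing muscle, of adult male C57BL/6J mice, with 1 mouse per library and 31 mice in 9 groups. In the first experiment, MM received complete Freund's adjuvant (CFA), a suspension of killed mycobacteria in oil that causes inflammation, and was collected at 1d (n = 3) or 5d (n = 3) post-CFA, with 3 vehicle mice. In the second experiment, MM received collagenase type 2 (Col), an enzyme preparation that digests the collagen of the tissue. A dose of 10U was followed to 2d (n = 4), 6d (n = 3) and 12d (n = 4) post-Col, and a dose of 0.2U was given to the groups titled 1C (n = 4) and RPC (n = 4), with 3 vehicle mice titled Contr. The days are those of the labels. The study's text gives other days for the groups labelled 2d and 12d, and the labels give no day for 1C, RPC or either vehicle group. The vehicle was phosphate-buffered saline. The 5 Col groups were set against the same 3 vehicle mice, and both CFA groups against the same 3 vehicle mice of their own experiment.

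Fatty acids enter the mitochondrial matrix bound to carnitine, and are then shortened in repeated rounds of oxidation, hydration, oxidation and cleavage that release acetyl-CoA. Working skeletal muscle draws much of its ATP from this pathway. Among the genes, Cpt1b encodes the muscle form of the outer-membrane carnitine palmitoyltransferase, the controlled step of entry, and Cpt2 its inner-membrane partner. Acadvl, Acadl and Acadm encode the acyl-CoA dehydrogenases for very long, long and medium chains, which open each round. Hadha and Hadhb encode the alpha and beta subunits of the mitochondrial trifunctional protein, and Acaa2 a thiolase that cleaves off acetyl-CoA. Etfdh encodes the ubiquinone oxidoreductase that passes electrons from these dehydrogenases to the respiratory chain. Auh encodes a hydratase of leucine breakdown that also binds RNA, so it stands beside the pathway rather than within it.

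In build mm9, the build of the alignment, Cpt1b lies at chr15:89246836-89256294, Cpt2 at chr4:107576586-107596215, Acadl at chr1:66877413-66909851, Acadm at chr3:153585321-153607596, Acadvl at chr11:69823685-69828913, Etfdh at chr3:79407710-79432785 and Auh at chr13:52930488-53025050, each on the minus strand. Hadha at chr5:30444841-30481702, on the minus strand, and Hadhb at chr5:30481788-30511133, on the plus strand, lie head to head. The upstream sequences of this pair and of the 3 dehydrogenases are shown because the pair shares most of its upstream bases and because the values of Acadl did not move with those of the other dehydrogenases after 10U Col. They are the 250 bases before each start in RefSeq on GRCm38.p6, read 5′ to 3′ on the strand of the gene. Capitals mark GGGCGG, the GC box, or AGGTCA, the hexamer bound by many nuclear receptors, on either strand. The windows are Hadha chr5:30154981-30155230, Hadhb chr5:30155003-30155252, Acadl chr1:66863310-66863559, Acadm chr3:153944644-153944893 and Acadvl chr11:70015429-70015678.
Hadha: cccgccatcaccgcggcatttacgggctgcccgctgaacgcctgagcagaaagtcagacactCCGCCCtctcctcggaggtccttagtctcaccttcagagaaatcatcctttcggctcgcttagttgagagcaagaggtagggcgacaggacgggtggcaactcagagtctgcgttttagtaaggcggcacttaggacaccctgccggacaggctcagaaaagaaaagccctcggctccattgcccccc
Hadhb: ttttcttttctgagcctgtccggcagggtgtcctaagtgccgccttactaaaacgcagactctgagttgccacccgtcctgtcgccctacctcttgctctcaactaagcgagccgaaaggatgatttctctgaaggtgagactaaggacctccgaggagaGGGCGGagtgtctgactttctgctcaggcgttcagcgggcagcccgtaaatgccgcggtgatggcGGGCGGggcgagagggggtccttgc
Acadl: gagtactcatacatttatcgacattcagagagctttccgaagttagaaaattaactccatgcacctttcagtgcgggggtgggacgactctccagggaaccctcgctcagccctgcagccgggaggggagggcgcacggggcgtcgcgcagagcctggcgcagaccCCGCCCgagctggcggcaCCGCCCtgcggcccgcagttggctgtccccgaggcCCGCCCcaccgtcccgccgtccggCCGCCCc
Acadm: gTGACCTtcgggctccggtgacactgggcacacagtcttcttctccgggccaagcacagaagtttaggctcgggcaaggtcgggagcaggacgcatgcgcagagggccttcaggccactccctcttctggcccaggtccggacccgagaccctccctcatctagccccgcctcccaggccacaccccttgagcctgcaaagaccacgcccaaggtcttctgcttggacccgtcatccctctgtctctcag
Acadvl: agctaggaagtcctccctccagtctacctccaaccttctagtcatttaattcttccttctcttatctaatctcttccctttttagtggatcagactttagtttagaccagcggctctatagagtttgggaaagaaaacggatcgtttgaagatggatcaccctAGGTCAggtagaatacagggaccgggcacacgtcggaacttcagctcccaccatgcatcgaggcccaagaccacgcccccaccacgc

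The starts of Hadha and Hadhb were 273 bases apart and their windows shared 228 bases, so that the single GC box of the Hadha window is also one of the pair in the Hadhb window, read from the other strand. The Acadl window held 4 GC boxes, all within the 84 bases next to the start, and had a GC content of 68.0%. The windows of Acadm and Acadvl, with 64.0% and 49.6% GC, held no GC box and 1 AGGTCA each. Of 8 genes with a window searched, 5 held a GC box (Acadl, Cpt2, Hadha, Hadhb and Auh), as did 32.9% of 27025 promoters, and 2 held AGGTCA, as did 13.8%. Neither the DR1 element, the direct repeat bound by PPARs, nor TNAAGGTCA, the element of estrogen-related receptors, was found in the 8 windows; 0.333% and 1.14% of all promoters held them. These are matches of letters in a short window and say nothing of binding. Cpt1b and Acaa2 were not searched.

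The libraries held 14843778 to 29076671 reads assigned to genes, with a median of 20834472. Single genes rested on 30 to 299 reads for Cpt1b and on 406 to 13577 reads for the other 9. Levels are given as CPM, the read count of a gene relative to all reads on genes in its library, scaled by the TMM factors of edgeR. Some libraries stood apart in ways that touch the comparisons. The summed level of 10 salivary gland markers ran from 11.1 to 289087 CPM, with 91.0, 146833 and 41744 CPM in the 3 Col vehicle mice and 11.1 to 33.8 CPM at 6d post-Col (10U). The share of reads that fell on more than 1 gene was 0.331% to 0.399% in the 11 libraries of the 10U groups and 0.0758% to 0.138% in the other 20, without overlap. The counting settings of the files are not given in the sources used here, and this difference and the 10U injection cannot be told apart in comparisons with vehicle, while the 10U groups share it when compared with each other.

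Gene models bear on 5 of the genes. In the mm9 annotation, 81.4% of the exon bases of Cpt1b are shared with a transcript of Chkb on the same strand, 42.9% of those of Acadvl lie opposite Dvl2, and 1.46% of those of Hadha lie opposite another gene. In all, 82.7% of 1997 windows of 50 bases in the Hadhb transcript, and 13.1% of 1998 in that of Acadm, occur elsewhere in the genome, and multiply aligned reads stand outside the gene counts. The low levels of Cpt1b and Hadhb given here are therefore levels of countable reads. Genes with over 10% to 50% of exon bases on both strands, the class of Acadvl, had a median log2 fold change of -0.08 at 6d post-Col (10U) against 0.01 for genes with none.

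In the Col vehicle mice, per kilobase of transcript, Acadvl (175 ± 44.6 CPM per kb, SD, n = 3) and Acadl (153 ± 16.4) were the highest of the 10. Acadm (104), Acaa2 (98.1), Hadha (91.2), Etfdh (67.1), Auh (43.1), Cpt2 (30.5), Hadhb (22.8) and Cpt1b (2.60) followed, in CPM per kb. On the CPM scale, the 10U groups at 2d and 6d held the lowest and second lowest mean level of 9 genes, and Acadl alone was lowest at 5d post-CFA. In the order of the 9 group means, neighbouring groups overlapped for every gene, except Acadvl, whose levels at 12d and 6d post-Col (10U) lay apart. Levels in the Col vehicle mice were below those in the CFA vehicle mice for all 10 genes, with log2 differences from -0.06 ± 0.19 (SE) for Acadm to -0.61 ± 0.31 for Cpt2. The sign for Acadm turned under 2 alternatives. None of the 10 differences was called by edgeR's quasi-likelihood test (adjusted p = 1) or had an unadjusted p under 0.05, DESeq2 called 0, and edgeR called 0.0426% of 14070 genes, all higher in the Col vehicle mice. The vehicle groups overlapped for all 10 genes, while 2.55% of tested genes lay apart with lower and 2.52% with higher levels in the Col vehicle mice.

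**Figure D1:**
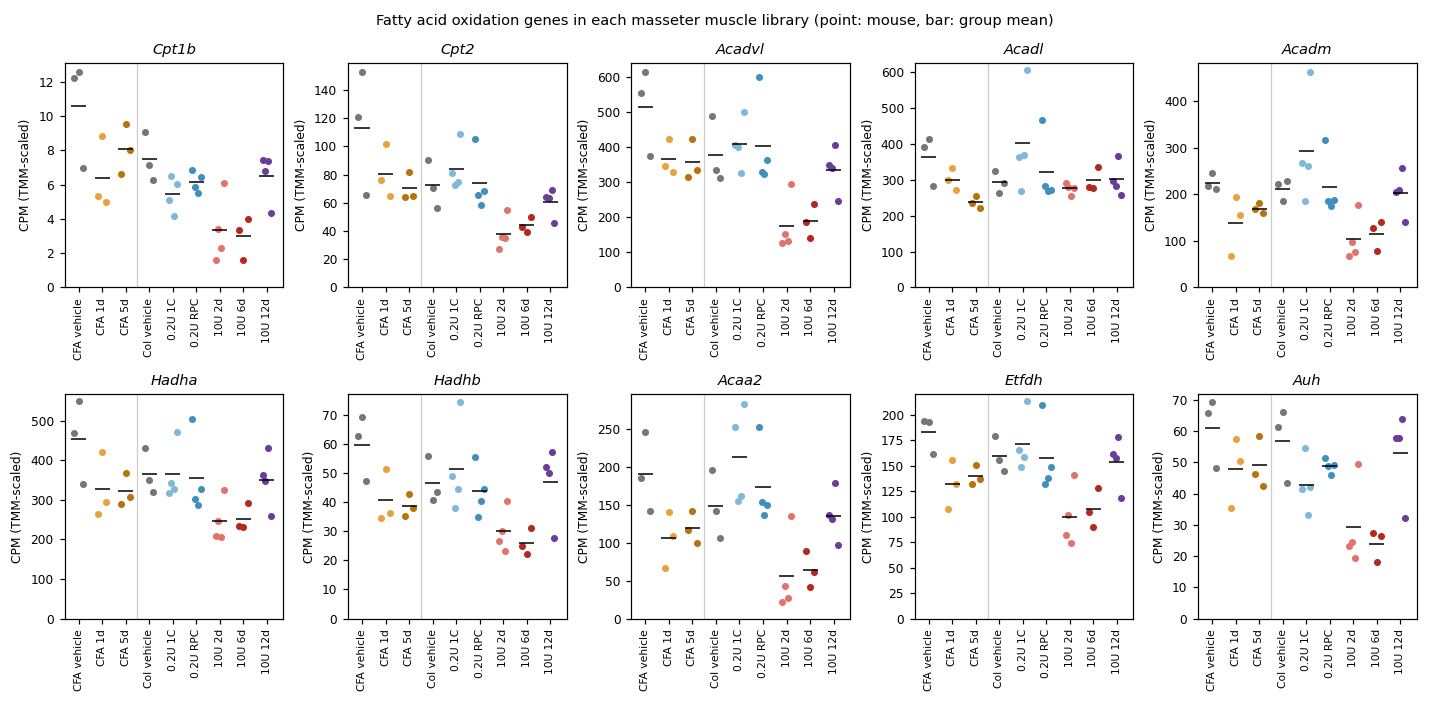
TMM-scaled CPM (vertical axis, linear from 0) of each of the 10 genes in each of 31 mice, by group; points are mice, bars are group means and the grey line divides the CFA from the Col experiment. For every gene except Acadl, the 10U groups at 2d and 6d have the lowest means, and the 12d group overlaps its vehicle mice.

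At 6d post-Col (10U), 7 of the 10 genes were down-regulated against the vehicle mice: Cpt1b, Cpt2, Acadvl, Acadm, Hadhb, Acaa2 and Auh. They stood at 39.8% (Cpt1b) to 61.0% (Cpt2) of the vehicle level. The study's text also names Acaa2 and Auh as down-regulated at this time. The quasi-likelihood test of edgeR, with Benjamini-Hochberg adjustment over all genes, called 13.3% of 14281 genes lower in this comparison and 14.0% higher. All 3 mice lay below all vehicle mice for 9 genes, all but Acadl, as for 21.9% of tested genes. The median log2 fold change of the 10 genes was -0.86, against 0.01 for all genes. In bulk tissue, fewer muscle fibres in a sample and less of an RNA in each fibre cannot be told apart.

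Of the carnitine transferases, Cpt1b was at 9.10, 7.18 and 6.29 CPM in the 3 vehicle mice and at 3.34, 1.63 and 4.01 CPM at 6d. Every mouse at 6d was below every vehicle mouse, and the log2 fold change was -1.33 ± 0.37 (SE; edgeR adjusted p = 0.0364). Cpt2 was at 90.3, 70.5 and 56.2 CPM in vehicle mice and at 42.5, 39.3 and 50.1 CPM at 6d. These groups lay apart by a narrower gap, with a log2 fold change of -0.71 ± 0.20 (edgeR adjusted p = 0.0351).

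Of the 3 acyl-CoA dehydrogenase genes, Acadvl and Acadm were called lower and Acadl was not. Acadvl was at 490, 335 and 313 CPM in vehicle mice and at 188, 142 and 238 CPM at 6d, and had a log2 fold change of -0.996 ± 0.27 (edgeR adjusted p = 0.0325). Acadm was at 223, 186 and 228 CPM in vehicle mice and at 127, 77.8 and 141 CPM at 6d, with a log2 fold change of -0.88 ± 0.25 (edgeR adjusted p = 0.0392). For both, the highest mouse at 6d was below the lowest vehicle mouse. Acadl was at 325, 262 and 290 CPM in vehicle mice and at 281, 278 and 336 CPM at 6d. Its groups overlapped almost fully, and the log2 fold change was 0.03 ± 0.19 (edgeR adjusted p = 0.929). The sign turned under 4 of 14 alternatives, over which the value ran from -0.20 to 0.55.

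Of the trifunctional protein, Hadhb was at 55.9, 40.6 and 43.5 CPM in vehicle mice and at 24.8, 22.2 and 31.1 CPM at 6d, with a log2 fold change of -0.84 ± 0.19 (edgeR adjusted p = 0.0210). Its partner Hadha was at 431, 350 and 319 CPM in vehicle mice and at 234, 232 and 291 CPM at 6d. The Hadha groups lay apart too, but its log2 fold change of -0.54 ± 0.21 did not pass (edgeR adjusted p = 0.0859). The Hadha to Hadhb ratio of CPM within a library was 7.33 to 8.60 in vehicle mice and 9.38 to 10.5 at 6d, a comparison chosen after the values were seen.

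The thiolase gene Acaa2 was at 197, 143 and 106 CPM in vehicle mice and at 89.7, 41.6 and 61.4 CPM at 6d, all lower, with a log2 fold change of -1.20 ± 0.33 (edgeR adjusted p = 0.0326). Auh was at 61.3, 66.2 and 43.3 CPM in vehicle mice and at 27.2, 18.1 and 26.5 CPM at 6d, with a log2 fold change of -1.24 ± 0.23 (edgeR adjusted p = 0.0113). Auh was called lower under all 14 alternatives run, with an adjusted p of 3.87e-05 to 0.0477. Etfdh was at 179, 155 and 144 CPM in vehicle mice and at 105, 89.9 and 128 CPM at 6d. The Etfdh groups lay apart, and the log2 fold change of -0.57 ± 0.19 fell short of the threshold (edgeR adjusted p = 0.0596).

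The count of 7 rested on single mice, with 3 against 3. It was 1, 4 and 8 without vehicle replicate 1, 2 and 3, and 2, 1 and 3 without replicate 1, 2 and 3 of the 6d group. With library totals in place of TMM, 1 gene (Auh) was called, the median of the 10 genes was -0.35 and that of all genes 0.54, and the share of lower genes among all calls went from 48.9% to 12.0%. With the added threshold of a fold over 2 and an RPKM over 1, Auh, Acaa2 and Cpt1b were called, beside 7.23% of tested genes.

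**Figure D2:**
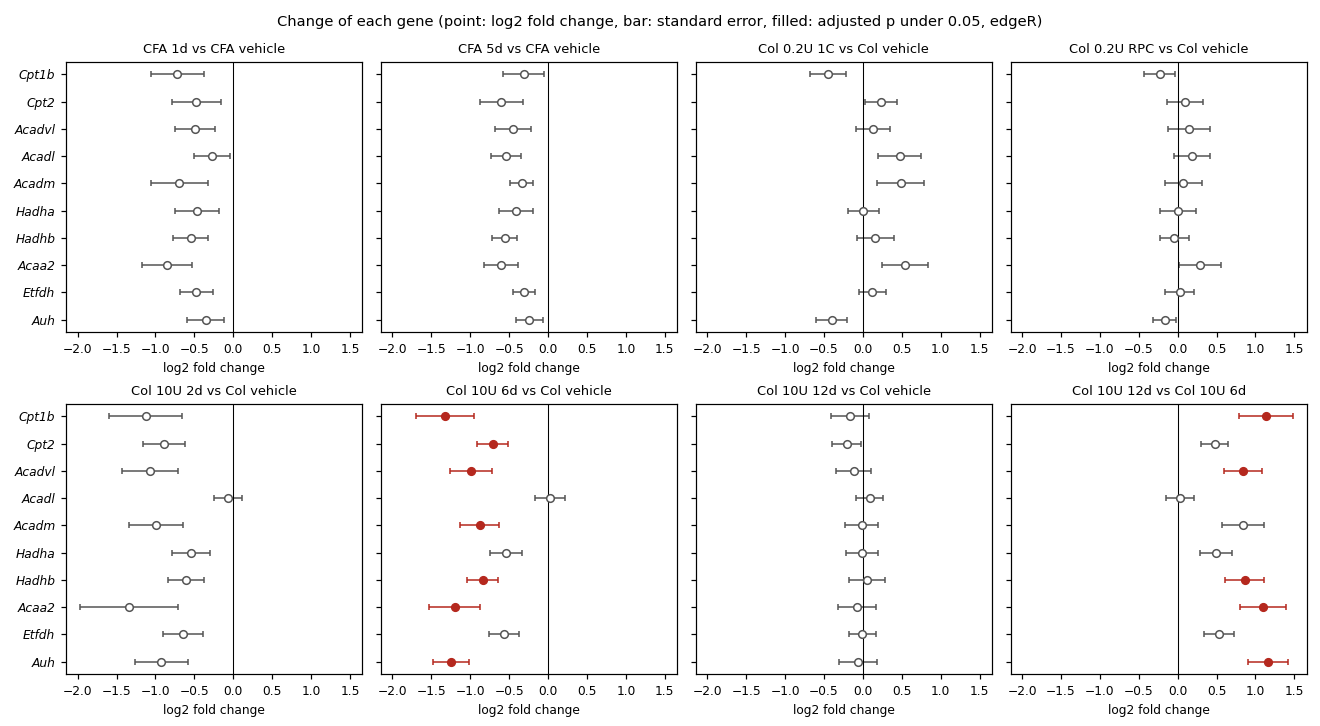
Log2 fold change (horizontal axis) of each gene in 8 comparisons, from edgeR; points are estimates, bars are standard errors and filled red points have an adjusted p under 0.05. The 7 filled points at 6d post-Col (10U) lie left of 0, the 5 filled points of 12d against 6d lie right of 0, and Acadl stays near 0 in each comparison of a 10U group.

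At 2d post-Col (10U), all 10 genes had values below 0 on the log2 scale, and none passed. The log2 fold changes were -1.35 ± 0.63 (SE) for Acaa2, -1.13 ± 0.46 for Cpt1b, -1.07 ± 0.36 for Acadvl, -0.99 ± 0.35 for Acadm, -0.93 ± 0.34 for Auh, -0.89 ± 0.27 for Cpt2, -0.65 ± 0.25 for Etfdh, -0.61 ± 0.23 for Hadhb, -0.54 ± 0.24 for Hadha and -0.06 ± 0.18 for Acadl. Their adjusted p in edgeR ran from 0.0777 (Cpt2) to 0.83 (Acadl). While edgeR called 0 of the 10 and 1.08% of 14373 genes lower, 7 genes had an unadjusted p under 0.05 and DESeq2 called 3 (Cpt2, Acadm and Acadvl). The 4 mice lay below all vehicle mice for 6 genes (Cpt1b, Cpt2, Acadvl, Acadm, Etfdh and Hadhb), as for 13.2% of tested genes.

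The 4 mice at 2d were unlike each other. Acaa2 was at 21.3, 42.4, 26.7 and 136 CPM, Acadvl at 126, 153, 132 and 295 CPM, and Auh at 23.3, 24.6, 19.5 and 49.6 CPM. Replicate 4 was the highest for each of these, within the vehicle range for Acaa2 and Auh and just below it for Acadvl, while the other 3 lay well below it. Acadl, at 292, 281, 255 and 276 CPM, showed no such spread. Replicate 4 also had 27573542 reads on genes, against 15759560 to 16753167 in the other 3, and the lowest macrophage marker level and the highest muscle fibre and salivary gland marker levels of the group. Their part in the result was not tested. Without replicate 4, edgeR called 9 of the 10 genes lower, all but Acadl. With all 4 mice, 8 were called when the spread was estimated over the 31 libraries. Over all genes, that fit called 2548 lower and DESeq2 1639, against 155 by edgeR on these groups alone. Between 6d and 2d, log2 differences ran from -0.32 ± 0.35 (Auh) to 0.18 ± 0.25 (Cpt2). All 10 genes overlapped, while 10.7% of tested genes lay apart with lower and 12.9% with higher levels at 6d. None was called by edgeR or DESeq2 or had an unadjusted p under 0.05, beside 4.05% of 14513 genes called lower and 4.68% higher, and without replicate 4 of the 2d group edgeR called 1 gene higher at 6d.

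At 12d post-Col (10U), levels were close to those of the vehicle mice. Log2 fold changes ran from -0.21 ± 0.19 (SE) for Cpt2 to 0.09 ± 0.18 for Acadl, and the groups overlapped for all 10 genes, while 8.51% of tested genes lay apart below vehicle and 8.55% above it. edgeR called 0 of the 10 genes, with 0 at an unadjusted p under 0.05 and 0 by DESeq2, beside 0.466% of 14176 genes called lower and 0.762% higher. With standard errors of 0.17 to 0.24, small changes were not detectable with 4 against 3 mice.

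Set against 6d directly, 5 genes were up-regulated at 12d: Auh, Cpt1b, Acaa2, Hadhb and Acadvl. Auh was at 57.8, 57.8, 63.9 and 32.1 CPM at 12d, all above the 6d mice, with a log2 difference of 1.16 ± 0.26 (SE; edgeR adjusted p = 0.0217). Cpt1b was at 7.47, 6.82, 7.36 and 4.36 CPM at 12d, with a difference of 1.14 ± 0.35 (edgeR adjusted p = 0.0466). Acaa2, at 137, 131, 179 and 96.6 CPM, differed by 1.10 ± 0.30 (edgeR adjusted p = 0.0355). These 3 genes were at 214% to 224% of their 6d level. Hadhb, at 52.0, 50.1, 57.1 and 27.8 CPM at 12d, differed by 0.86 ± 0.25 (edgeR adjusted p = 0.0421), and Acadvl, at 349, 341, 407 and 247 CPM, by 0.84 ± 0.24 (edgeR adjusted p = 0.0407). Replicate 4 was the lowest of the 12d mice for each of these 5 genes, and for Hadhb it fell within the 6d range.

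The other 5 genes did not pass. Acadm differed by 0.84 ± 0.27 (edgeR adjusted p = 0.0548), Etfdh by 0.53 ± 0.19, Hadha by 0.49 ± 0.21, Cpt2 by 0.48 ± 0.17 and Acadl by 0.03 ± 0.18 on the log2 scale. edgeR called 13.4% of 14344 genes higher at 12d, and the groups lay apart, higher at 12d, for 17.2% of them and for 4 of the 10 genes (Acadvl, Acaa2, Cpt1b and Auh). With a fold over 2 and an RPKM over 1, 3 of the 10 and 4.56% of tested genes were called higher. The count of 5 rested on single mice as well. It was 0 without replicate 1, 2 or 3 of the 12d group and 9 without its replicate 4, and 1, 0 and 2 without replicate 1, 2 and 3 of the 6d group. Replicate 4 at 12d also had the lowest muscle fibre level (63541 CPM, against 121807 to 155924) and the highest macrophage level (1136 CPM, against 157 to 330) of its group, and the part of these in the result was not tested.

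Because Acadl did not move with Acadvl and Acadm, the make-up of the dehydrogenase transcripts within a library was compared between groups. These ratios were chosen after the values had been seen and are given as a description, with no test. The Acadl to Acadvl ratio of CPM was 0.663, 0.783 and 0.929 in the Col vehicle mice, 2.32, 1.84, 1.94 and 0.937 at 2d, 1.497, 1.95 and 1.41 at 6d, and 0.852, 0.83, 0.897 and 1.04 at 12d. All mice at 6d, and 3 of 4 at 2d, lay above every vehicle and 12d mouse. A ratio within a library does not depend on library scaling, and it shows unequal change, not which gene moved.

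The Acadl to Acadm ratio was 1.27 to 1.46 in Col vehicle mice, 1.57 to 4.32 at 2d, 2.22 to 3.57 at 6d and 1.34 to 1.83 at 12d. The Acadm to Acadvl ratio overlapped throughout, with 0.454 to 0.729 in vehicle mice, 0.537 to 0.643 at 2d and 0.547 to 0.676 at 6d. Acadl made up 31.3% to 34.9% of the summed CPM of the 3 dehydrogenases in vehicle mice, 37.0% to 60.2% at 2d, 47.0% to 55.8% at 6d and 33.9% to 39.9% at 12d. Per kilobase of transcript, the mean of Acadl at 6d was 156 ± 17.0 CPM per kb (SD, n = 3) and that of Acadvl 87.3 ± 22.1. Acadl was also first of the 10 genes at 2d, at 12d and in 1C on this scale, and with the length of all exons of a gene it was first in the Col vehicle mice too (RPKM of 146 ± 15.7 against 141 ± 36.0 for Acadvl), so the order of the pair depends on the length used. In one mouse at 1d post-CFA the Acadl to Acadm ratio reached 4.36, while the other 2 were at 1.70 and 1.74.

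**Figure D3:**
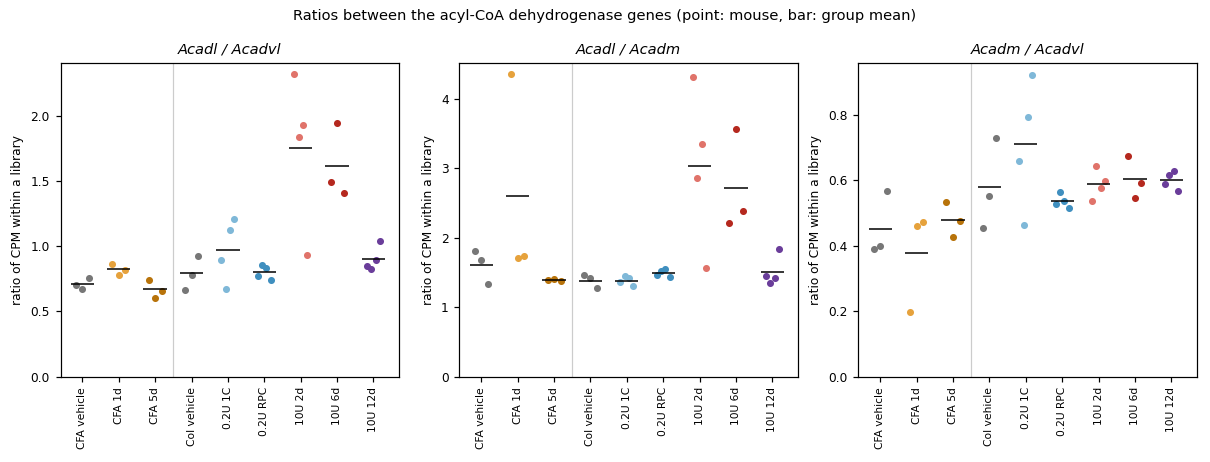
Ratio of CPM within a library (vertical axis, linear from 0) for pairs of acyl-CoA dehydrogenase genes, by group; points are mice and bars are group means. Both ratios with Acadl as numerator are raised in 3 of 4 mice or more at 2d and 6d post-Col (10U), with 1.41 to 1.95 for Acadl to Acadvl at 6d, while Acadm to Acadvl stays between 0.537 and 0.676 at 2d and 6d.

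At 1d post-CFA, all 10 genes were below 0 on the log2 scale and none passed, nor did any of 13944 genes (0% called lower by edgeR, 588 genes at an unadjusted p under 0.05 and 56 by DESeq2). The largest differences were -0.85 ± 0.32 (SE) for Acaa2, -0.72 ± 0.34 for Cpt1b and -0.70 ± 0.37 for Acadm, and the smallest was -0.27 ± 0.23 for Acadl, each with an edgeR adjusted p of 0.924. At an unadjusted p under 0.05 there were 2 genes, Acaa2 and Hadhb, and DESeq2 called 0. Acaa2 was at 186, 247 and 142 CPM in the CFA vehicle mice and at 67.2, 141 and 109 CPM at 1d. Acadm was at 217, 247 and 213 CPM in vehicle mice and at 68.5, 195 and 155 CPM at 1d. Both lay below the vehicle range in all 3 mice, with replicate 1 the lowest for each, and so did Etfdh, beside 2.76% of tested genes.

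At 5d post-CFA, the 10 genes were again below 0, with a median of -0.43 against -0.02 for all genes. The log2 fold changes were -0.60 ± 0.22 (SE) for Acaa2, -0.60 ± 0.27 for Cpt2, -0.56 ± 0.16 for Hadhb and -0.54 ± 0.19 for Acadl, and the other 6 ran from -0.45 (Acadvl) to -0.24 (Auh). The smallest adjusted p in edgeR was 0.169 (Hadhb). edgeR called 0 of the 10 and 0.0428% of 14026 genes lower (1.06% higher), 3 of the 10 had an unadjusted p under 0.05, and DESeq2 called 2 (Acadl and Hadhb). The count was 4 (Acadl, Hadhb, Cpt2 and Acaa2) without replicate 3 of the vehicle mice and 0 without any other mouse. All 3 mice lay below the vehicle range for 5 genes, Acaa2, Acadl, Acadm, Etfdh and Hadhb, as for 7.95% of tested genes.

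Acadl, which overlapped with vehicle after 10U Col, was the gene with its lowest mean level at 5d post-CFA. It was at 392, 415 and 284 CPM in CFA vehicle mice, at 299, 332 and 270 CPM at 1d and at 235, 256 and 220 CPM at 5d. The 5d mice lay below both other groups, and below the 1d mice by a log2 difference of -0.28 ± 0.17 that did not pass, where 13.8% of 14046 genes were lower without overlap. From 1d to 5d the log2 differences of the 10 genes ran from -0.28 (Acadl) to 0.39 ± 0.29 (Cpt1b), with 0 called by edgeR or DESeq2, 0 at an unadjusted p under 0.05, and 0.990% of genes called lower and 4.85% higher. Salivary gland marker levels were 131629 to 165808 CPM at 5d and 106 to 15027 CPM in the CFA vehicle mice. In 1 fit over all 31 libraries, the median log2 value of the 10 genes at 5d against vehicle was -0.51. With a salivary gland marker score in that fit, chosen after seeing the data, it was -0.28. For 5d against 1d the median was 0.01 without the score and 0.23 with it. The cause of these shifts was not tested.

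Whether the change after 10U Col differed from that after CFA was tested as an interaction, although the days do not match. For 6d post-Col (10U) minus 5d post-CFA, the log2 difference of changes was -1.02 ± 0.30 (SE) for Auh (edgeR adjusted p = 0.0530), -1.02 ± 0.46 for Cpt1b (0.169) and 0.56 ± 0.24 for Acadl (0.144). edgeR called 0 of the 10 genes, beside 6.96% of 14892 genes called lower and 4.34% higher. At an unadjusted p under 0.05 there were 3 genes, and DESeq2 called Auh lower and Acadl higher. Without replicate 3 of the Col vehicle mice, Auh passed (edgeR adjusted p = 0.0235). For 2d post-Col (10U) minus 1d post-CFA, differences ran from -0.61 ± 0.47 (Acadvl) to 0.20 ± 0.27 (Acadl), with 0 called by edgeR or DESeq2, 0 at an unadjusted p under 0.05, and 0.0406% of 14794 genes called lower and 0.0541% higher. A difference between the responses to CFA and 10U Col was thus not shown by edgeR with TMM scaling for any of the 10 genes with all mice included. With library totals in place of TMM, 2 of the 10 were called higher in the interaction with 6d. Higher calls over all genes then went from 647 to 5469.

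After 0.2U Col, no gene of the 10 passed in either group. In the 1C group, log2 fold changes ran from -0.45 ± 0.23 (SE) for Cpt1b to 0.54 ± 0.30 for Acaa2, and in the RPC group from -0.23 ± 0.20 for Cpt1b to 0.28 ± 0.27 for Acaa2. edgeR called 0 genes in either comparison, 0% of 14493 in 1C and of 14269 in RPC, with 1820 and 1924 genes at an unadjusted p under 0.05 and 519 and 443 called by DESeq2. None of the 10 had an unadjusted p under 0.05, DESeq2 called 0 of them, and every one overlapped with the vehicle mice. Without overlap, 5.41% of tested genes were lower and 4.35% higher in 1C, and 8.02% and 4.21% in RPC.

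Single mice were far above the rest in these groups. In 1C, Acadm was at 268, 186, 260 and 463 CPM and Acadl at 364, 269, 369 and 606 CPM, with replicate 4 the highest. In RPC, Acadl was at 465, 282, 270 and 270 CPM and Acaa2 at 253, 154, 137 and 150 CPM, with replicate 1 the highest. Cpt1b did not follow, at 5.11, 6.53, 4.15 and 6.01 CPM in 1C and 6.84, 5.88, 5.51 and 6.45 CPM in RPC. The summed level of 8 brown adipocyte markers was 533, 78.8, 403 and 906 CPM in the 4 mice of 1C and 179 to 299 CPM in RPC, against 69.5 to 75.5 CPM in the vehicle mice. In 1C it was highest in replicate 4, as were Acadm and Acadl, but in RPC it was 264, 299, 287 and 179 CPM, so that replicate 1, the highest for Acadl and Acaa2, was not the highest. Its part in the levels was not tested.

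Other genes of lipid and mitochondrial metabolism, in lists chosen by function, fell in part at 6d post-Col (10U), where 13.3% of all tested genes were called lower and 14.0% higher. Of 15 other mitochondrial beta-oxidation enzymes, 8 fell and 0 rose (median log2 fold change -0.77, all genes 0.01), with the largest fall in Echs1, the short-chain enoyl-CoA hydratase (-1.39 ± 0.32, edgeR adjusted p = 0.0217). Of 13 genes of branched-chain amino acid breakdown, the pathway of Auh, 10 fell and 0 rose (median -1.04), led by Ivd, isovaleryl-CoA dehydrogenase of the leucine pathway (-1.79 ± 0.30, edgeR adjusted p = 0.00897). Of 17 TCA cycle genes, 6 fell and 0 rose (median -0.90), led by the malate dehydrogenase gene Mdh2 (-1.23 ± 0.32). All 17 had values below 0.

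Of 10 genes of fatty acid uptake and activation, 4 fell and 1 rose (median -0.51). Slc27a1, a fatty acid transporter, fell by 1.66 ± 0.23 on the log2 scale (edgeR adjusted p = 0.00476), and Acsl6, an acyl-CoA synthetase, rose by 1.05 ± 0.22 (edgeR adjusted p = 0.0161). Of 19 tested regulators of fatty acid oxidation, 7 fell and 1 rose (median -0.76), with a fall in Klf15, a transcription factor of muscle lipid use (-1.72 ± 0.29, edgeR adjusted p = 0.00839), and a rise in Prkaa1, a catalytic subunit of AMP-activated kinase (0.74 ± 0.18). Of 11 peroxisomal genes, 2 fell and 0 rose (median -0.40), led by Ehhadh (-1.36 ± 0.33), a share near that of all genes. Of 14 genes taken to reflect mitochondrial mass, 5 fell and 0 rose (median -0.45), led by the adenine nucleotide carrier Slc25a4 (-1.32 ± 0.41). At 2d post-Col (10U), 0 genes of these 7 lists were called, with medians of -0.44 to -1.08.

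From 6d to 12d, the same lists rose in part, where 13.4% of all tested genes were called higher. Called higher were 9 of 15 other beta-oxidation enzymes (median log2 difference 0.79, all genes 0.00), led by Eci1 (1.34 ± 0.29), 11 of 13 genes of branched-chain amino acid breakdown (0.86), led by Ivd (1.71 ± 0.30), and 10 of 17 TCA cycle genes (0.85), led by Sdhc (1.26 ± 0.27). Of the uptake list 3 of 10 rose (0.36), led by Lpl, the lipoprotein lipase that frees fatty acids for uptake (1.75 ± 0.37), and of the regulators 5 of 19 (0.68), led by Klf15 (1.60 ± 0.33). Of the 11 peroxisomal genes 3 rose and 1 fell (median 0.36), with Ehhadh at 0.78 ± 0.24 and Acox3 at -0.33 ± 0.10. Of the 14 mitochondrial mass genes 3 rose and 1 fell (0.44), with the outer-membrane channel gene Vdac3 at 1.03 ± 0.23 and the import gene Timm23 at -0.90 ± 0.20.

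Markers of other cells moved with these groups. Summed levels of 16 muscle fibre markers were 133438 to 182983 CPM in Col vehicle mice, 48561 to 78323 at 2d, 51237 to 85106 at 6d and 63541 to 155924 at 12d. At 6d, 5 of the 16 were called lower and 0 higher (median log2 fold change -1.03), with Myh4, a fast myosin heavy chain, at -2.23 ± 0.60. From 6d to 12d, none of the 16 was called higher, and Des was called lower (-0.88 ± 0.27). Summed levels of 11 macrophage markers were 150 to 508 CPM in vehicle mice, 605 to 1593 at 2d, 1548 to 3046 at 6d and 157 to 1136 at 12d. At 6d, 10 of the 11 were called higher (median 2.80), with Fcgr1 at 3.90 ± 0.48. Summed levels of 8 fibroblast markers were 1409 to 9453 CPM in vehicle mice and 14833 to 25457 CPM at 6d, without overlap, and 2 of the 8 were called higher (median 0.95), with Postn, an extracellular matrix gene, at 4.09 ± 1.12. Of 7 slow oxidative fibre markers, 0 fell and 3 rose, with Tnni1 at 6.39 ± 0.65, while 4 had values below 0 and the median was -0.20. Of 7 endothelial markers 2 fell and 0 rose (median -0.28), of 6 tested keratinocyte markers 5 fell and 0 rose (-2.51), and of 7 bone markers 3 fell and 1 rose (-2.24). Of 7 white adipocyte markers, 3 fell and 0 rose (median -1.55), with Retn at -1.87 ± 0.49. Neutrophil markers summed to 6.52 to 745 CPM in vehicle mice and 12.8 to 16.9 CPM at 6d, with S100a9 at -6.86 ± 1.49. Of the brown adipocyte markers, Elovl3 rose by 3.97 ± 0.52. Every muscle fibre and macrophage marker had counts in every group, and all 16 muscle fibre markers were detected, as a muscle sample would give.

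Set against other lists within a library, the order of the groups depended on the measure. The mean log2(CPM + 1) of the 10 genes minus that of the 16 muscle fibre markers was -5.78 ± 0.02 (SD, n = 3) in vehicle mice, -5.35 ± 0.19 (n = 4) at 2d, -5.72 ± 0.13 (n = 3) at 6d and -5.54 ± 0.20 (n = 4) at 12d. The 6d mice overlapped with the vehicle mice and the 2d mice lay above them. Minus the TCA cycle genes it was -2.25 ± 0.15 in vehicle mice, -2.07 to -1.90 at 2d, -2.21 ± 0.04 at 6d and -2.29 ± 0.04 at 12d, and again the 2d mice lay above the vehicle mice. Minus the 14 mitochondrial mass genes it was -0.38 ± 0.15 in vehicle mice, -0.84 ± 0.39 at 2d, -0.76 ± 0.07 at 6d and -0.41 ± 0.04 at 12d, and the 6d mice (-0.83 to -0.70) lay below the vehicle mice (-0.55 to -0.27). The ratio of summed CPM, which rests on the most abundant genes, gave another direction. The 10 genes summed to 19.3% to 25.1% of the mitochondrial mass genes in vehicle mice and to 26.2% to 34.4% at 6d, with all mice above the vehicle range. They summed to 0.886% to 1.16% of the muscle fibre markers in vehicle mice and to 1.46% to 1.84% at 6d, also apart, and to 14.4% to 18.1% and 18.04% to 21.07% of the TCA cycle genes, with overlap. Acadl, with a log2 fold change of 0.03 at 6d, held on average 293 of 1742 summed CPM in vehicle mice and 298 of 1124 at 6d. Neither measure placed the 10 genes at 6d below the vehicle range against the muscle fibre or TCA cycle genes. Both measures include Acadl, and neither was computed without it or tested. Against the mitochondrial mass genes, the mean of log2 values showed a larger fall at 6d and the summed CPM a smaller one. The part of the changed cell make-up in the fall of the 10 genes was not tested.

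**Figure D4:**
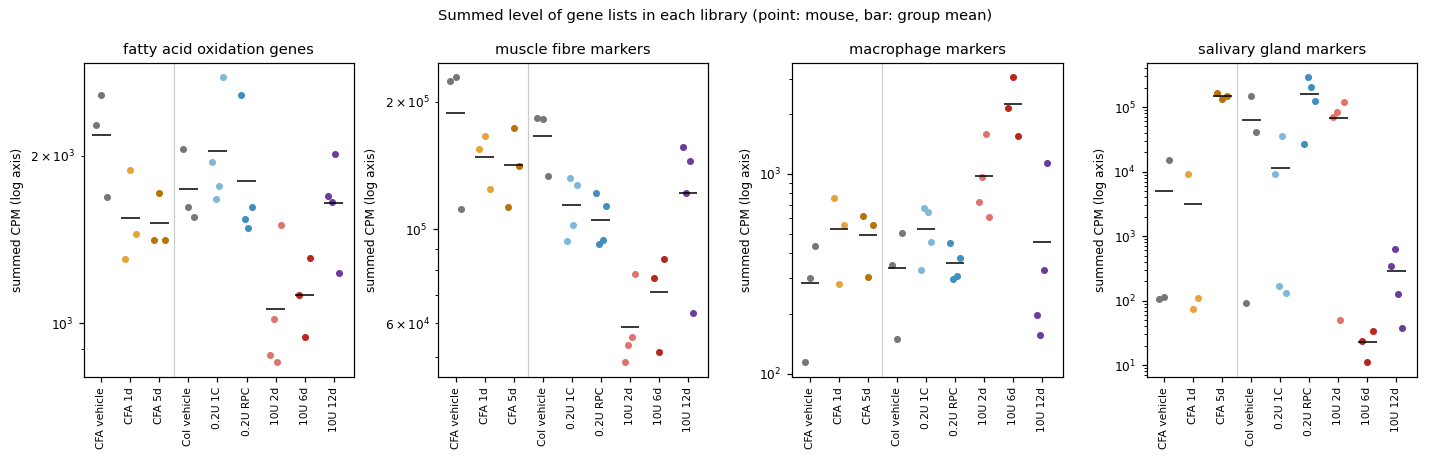
Summed CPM (vertical axes, log scale) of the 10 fatty acid oxidation genes and of muscle fibre, macrophage and salivary gland markers in each mouse, by group; points are mice and bars are group means. The fatty acid oxidation genes and the muscle fibre markers are low at 2d and 6d post-Col (10U), the macrophage markers are highest at 6d (1548 to 3046 CPM), and the salivary gland markers vary by orders of magnitude between groups and within the Col vehicle mice.

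Across the 31 libraries, the 10 genes varied together, apart from Acadl. Over their 45 pairs, Pearson's r of log2 CPM had a median of 0.841 (0.194 to 0.954). The 36 pairs without Acadl had a median of 0.857, with none under 0.673, and the 9 pairs with Acadl a median of 0.585. Etfdh followed the mean of the other 9 most closely (r = 0.977) and Acadl least (r = 0.527). All values come from the same libraries, groups and scaling, so they describe this set of mice.

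Of 9130 other genes with a mean of at least 10 CPM, the 10 whose log2 CPM was most like the mean of the 10 genes over the 31 libraries were Hadh (r = 0.980), Decr1 (0.975), Ech1 (0.964), Ephx2 (0.957), Acat1 (0.956), Etfb (0.956), Eci1 (0.955), Acss2 (0.947), Slc25a42 (0.947) and Lace1 (0.947). Hadh encodes the short-chain hydroxyacyl-CoA dehydrogenase, Decr1 and Eci1 auxiliary enzymes for unsaturated fatty acids, and Etfb a subunit of the electron acceptor of the acyl-CoA dehydrogenases. The measure was Pearson's r with the mean of log2 CPM centred per gene.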

How the data were processed

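The authors made stranded oligo-dT libraries, sequenced single reads of 50 bases and deposited, for every mouse, a file of unnormalized counts, where each count is a number of reads given to a gene symbol. The submitters' processing notes name bcl2fastq, TopHat2, HTSeq and build mm9, with no versions. The 5 closing lines of each table, which hold reads given to no gene, were not treated as genes. No library duplicated another (465 pairs compared), and no per-sample column was left without a sample.

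Genes that reached 10 counts in 3 or more of the compared libraries were kept, scaled by TMM and tested with the quasi-likelihood test of edgeR 4.0.16 in R 4.3.3, with Benjamini-Hochberg adjustment over all tested genes and a threshold of 0.05. Each fit used the groups compared, and the interactions used both experiments. CPM and RPKM were computed from the counts. DESeq2 1.42.0 was an alternative, beside other scalings, filters, references and fits, and limma 3.58.1 was loaded with edgeR. The fits were tested on simulated data, where unchanged genes made up a larger share of the calls than the threshold allows. The p-values measure the spread between single mice.

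The 10 genes and all lists were chosen with earlier results of these data known. All 10 are given throughout. From the metabolic lists the called genes with the largest rise and the largest fall in a comparison are named, and from the lists of cell markers some of these. Gene models came from GENCODE on mm9. Motifs were searched on both strands in the 250 bases before the start from RefSeq on GRCm38.p6, leaving out the 50 bases after it that had been planned. The labels do not say that equal replicate numbers mark shared litters or days. Deviations of same-numbered mice correlated at over 0.1 in all 3 pairs for 1d post-CFA against vehicle (0.107, 0.265 and 0.533) and for the vehicle groups (0.253, 0.103 and 0.652), and in no other comparison.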

Additional observations from a re-analysis of the deposited data

Results flagged for a closer look

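In groups of 4 mice, 1 mouse stood far from the others in 7 of 40 tests of a gene in a group, where chance gives about 1 in 20. The 10 genes varied together and were tested in the same mice, so the tests were not independent. An excess over chance was therefore not shown. In the RPC group, replicate 1 was the highest for Acadm (317.9 CPM, the others 174.6 to 187.8), Acadl (465.5 CPM, the others 269.9 to 282), Acadvl (601.6 CPM, the others 325 to 364.5) and Acaa2 (253.4 CPM, the others 137 to 154). At 2d post-Col (10U), replicate 4 was the highest for Acadvl (295.0 CPM, the others 126 to 153) and Auh (49.6 CPM, the others 19.5 to 24.6). In the 1C group, replicate 4 was the highest for Hadha (471.2 CPM, the others 318 to 342).

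The change after 10U Col differed between 12d and 6d for 5 genes by edgeR, with log2 differences of 1.16 for Auh, 1.14 for Cpt1b, 1.10 for Acaa2, 0.86 for Hadhb and 0.84 for Acadvl. In that comparison 13.4% of 14344 genes were called higher. The count of 5 was 0 without replicate 1, 2 or 3 of the 12d group.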

How the results depend on the processing

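With 1 mouse left out, 178 counts of called genes stayed within 1.5 times and 16 moved. The main count was above 0 only for 6d post-Col (10U) against vehicle (7) and for 12d against 6d (5). Most counts that stayed were 0 in the main fit. For 6d post-Col (10U) against vehicle, 7 genes became 1 with library totals in place of TMM, 2 with the replicate block and 3 with a fold over 2 and RPKM over 1, and 1 to 8 without single mice. For 2d against vehicle, 0 became 3 with DESeq2, 8 in 1 fit over all libraries, 7 in that fit with a salivary gland marker score (chosen after seeing the data), 8 with the replicate block and 9 with the vehicle mice of both experiments pooled, and 0 to 9 without single mice. Over all genes, lower calls at 2d went from 155 to 1639, 2548 and 2493 in the first 3 of these alternatives. For 12d against 6d, 5 became 9 with DESeq2, 9 with the replicate block and 3 with the fold threshold, and 0 to 9 without single mice. Counts were 0 to 4 at 5d post-CFA (2 with DESeq2), 0 to 1 higher for 6d against 2d, and 2 lower with library totals for 5d against 1d post-CFA. In the interaction of 6d post-Col with 5d post-CFA, 1 was lower and 1 higher with DESeq2, 2 were higher with library totals, and 0 to 1 were lower without single mice. The cause was not tested.

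The median log2 value of the 10 genes turned with library totals from -0.42 to 0.43 in the interaction with 6d, from -0.04 to 0.26 at 12d, from 0.07 to -0.40 for 5d against 1d post-CFA and from 0.05 to -0.07 in RPC. Over all alternatives it also crossed 0 in 1C (-0.04 to 0.43) and for 6d against 2d (-0.17 to 0.30). Of the genes followed singly, signs turned for Acadl, Cpt2 and Acadm. Acadl became 0.28 at 2d with library totals. At 6d it became -0.20 with the salivary gland marker score and -0.11 with pooled vehicles, and ran from -0.061 to 0.096 without single mice. At 12d it became -0.13 and -0.087 in those fits, and ran from -0.0051 to 0.13. Over all alternatives, Acadl reached 0.55 at 6d and 0.38 at 12d, and was called in none of them. For 12d against 6d it became -0.16 with library totals and ran from -0.076 to 0.12. Cpt2 at 12d became 0.10 with library totals. Acadm between the vehicle groups became 0.0040 with the salivary gland marker score and ran from -0.12 to 0.023.

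Library totals moved the median of all genes by 0.53 at 6d, 0.36 at 2d, 0.32 at 12d and -0.47 for 5d against 1d post-CFA (log2), and the share of lower calls from 48.6% to 21.3% at 2d, from 37.9% to 22.0% at 12d, from 46.4% to 29.1% for 6d against 2d, from 17.0% to 85.5% for 5d against 1d post-CFA and from 61.6% to 8.79% in the interaction with 6d. The replicate block, in the 2 comparisons whose numbers paired the mice, gave 0 calls as before. In the others they did not, and no comparison had every mouse closest to its own number, so the numbers were not shown to pair the mice. Under alternatives other than single mice, 206 counts stayed within 1.5 times and 16 moved. Here too most counts that stayed were 0 in the main fit.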
